A study of Mus musculus with 6 samples.

Results

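The 4 Fc gamma receptors of the mouse, their shared signalling chain and the enzymes that act next to them form a set of 7 genes: Fcgr1, Fcgr2b, Fcgr3, Fcgr4, Fcer1g, Syk and Inpp5d. The rule names the genes and uses no measured value, although the set was drawn up with earlier results of these data known. They were found by gene symbol (GENCODE M21) among the 54532 genes of the deposited tables. All 7 passed the filter on low values (a mean of at least 1 FPKM over the libraries) and belong to the 10634 genes tested. FPKM is fragments per kilobase of transcript, scaled to the library's total, so levels of different genes can be set side by side.

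The series asks what PGAM5, a mitochondrial protein phosphatase, does while macrophages enter an anti-inflammatory state. Transcripts were measured in immortalised bone marrow-derived macrophages, a mouse macrophage line that divides in culture, grown in high-glucose medium with serum. One group of 3 libraries carried a short hairpin RNA (shRNA) against PGAM5 and the other group of 3 carried one against DRP1, the GTPase that divides mitochondria, whose gene is Dnm1l. Cells of both groups had interleukin-4 (IL-4), a cytokine of the anti-inflammatory response, at 10 ng/ml for 24 h. No library with a non-targeting hairpin or without IL-4 was analysed here, so the contributions of the 2 knockdowns to any difference cannot be told apart. Nothing in the titles tells if numbers 1 to 3 mark separate cultures or separate hairpins. The p-values therefore measure the spread between these 6 libraries only, and that spread may be technical.

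Fc gamma receptors bind the constant part of IgG on coated particles and immune complexes. The activating receptors Fcgr1, Fcgr3 and Fcgr4 carry no signalling motif of their own and depend on the Fc receptor gamma chain, Fcer1g, whose ITAM (immunoreceptor tyrosine-based activation motif) is phosphorylated by Src family kinases and then binds the kinase Syk. Fcgr2b, the inhibitory receptor, carries an ITIM (immunoreceptor tyrosine-based inhibition motif) that recruits the inositol phosphatase SHIP1, the product of Inpp5d. In macrophages the balance between the activating and the inhibitory receptors sets the threshold for phagocytosis of IgG-coated particles and for cytokine release.

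The targeted genes followed the labels. Pgam5 stood at 4.91, 5.21 and 4.6 FPKM in the PGAM5 knockdown and 17.3, 17.1 and 17.2 FPKM in the DRP1 knockdown. Dnm1l stood at 17.2, 18.7 and 17.7 FPKM against 8.18, 7.42 and 7.12. The library totals that the FPKM divide by, inferred from the values themselves, ranged from 16111281 to 21933548 reads. The reads recovered in genes were more, 17030470 to 23272463 per library. The cause of this excess was not tested, and the totals are not taken as the full sequencing depth. PGAM5 knockdown library 3 stood apart from its group, with a chi-square per gene of 8.05 and 5.61 against libraries 1 and 2, where the other pairs within groups gave 2.65 to 3.26. Without that library, 1 member was still higher and 3 were still lower. Of the 9 macrophage markers, 8 had a mean of at least 1 FPKM. The summed level of the 9 was 3748 to 3916 FPKM in the PGAM5 knockdown and 4792 to 4837 FPKM in the DRP1 knockdown. Lyz2, Csf1r and Cd68 were lower in the PGAM5 knockdown (limma log2 differences -0.62, -0.60 and -0.44), and Spi1, Adgre1, Ptprc, Cd14 and Itgam did not pass. In bulk RNA, fewer cells of a type and less RNA per cell cannot be told apart.

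Fcgr2b and Fcgr3 arose from a common ancestral gene and share nearly identical extracellular parts, which bears on how their reads can be counted. Their longest transcripts matched at 96.5% identity over 509 bases, which is 14.4% of the Fcgr2b transcript and 37.8% of the Fcgr3 transcript. The 255-base exon 4 of each gene is shown to make that likeness visible. Capitals mark the 5 bases at which the 2 exons differ. The Fcgr2b exon lies at chr1:170966446-170966700 and the Fcgr3 exon at chr1:171053939-171054193, both on the minus strand of mm10, read from the GENCODE M21 transcripts ENSMUST00000027966 and ENSMUST00000164044.
Fcgr2b exon 4: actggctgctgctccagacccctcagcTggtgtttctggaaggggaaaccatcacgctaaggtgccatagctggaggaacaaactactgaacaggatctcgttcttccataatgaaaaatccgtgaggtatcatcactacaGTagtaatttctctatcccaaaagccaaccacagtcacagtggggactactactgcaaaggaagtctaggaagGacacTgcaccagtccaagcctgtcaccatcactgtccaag
Fcgr3 exon 4: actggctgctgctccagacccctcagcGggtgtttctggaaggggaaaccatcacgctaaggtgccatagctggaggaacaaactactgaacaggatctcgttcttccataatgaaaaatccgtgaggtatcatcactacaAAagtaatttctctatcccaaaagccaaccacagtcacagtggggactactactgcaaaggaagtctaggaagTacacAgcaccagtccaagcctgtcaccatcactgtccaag
Over the whole match the longest identical run was 129 bases. Of its 50-base windows, 166 of 460 (36.1%) were identical in the 2 genes, and of its 100-base windows 44 of 410 (10.7%). A read that lies in such a window cannot be assigned to either gene from its own letters, so the values of Fcgr2b and Fcgr3 are less certain than those of the other members. Fcgr4 lies between the 2 genes and had no such match: its closest stretches were 77.2% identical to Fcgr2b over 79 bases and 73.7% identical to Fcgr3 over 118 bases. Fcgr2b also held a stretch of 313 bases, 8.83% of its transcript, with matches of at least 97% identity in 11 other genes.

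Upstream sequence was read for a motif of the STAT transcription factors that act downstream of interferons and interleukins. The 250 bases before the start of Fcgr1 are shown because this was the only member whose window held a GAS-type motif (TTCNNNGAA; motifs were searched on both strands). They lie at chr3:96293970-96294219 on the minus strand, from the RefSeq promoter table of GRCm38.p6 (the assembly also called mm10). Capitals mark the GAS-type match, which begins 109 bases before the start, and a PU.1-type match (GAGGAA, found here on the other strand), which begins 55 bases before it.
Fcgr1 upstream: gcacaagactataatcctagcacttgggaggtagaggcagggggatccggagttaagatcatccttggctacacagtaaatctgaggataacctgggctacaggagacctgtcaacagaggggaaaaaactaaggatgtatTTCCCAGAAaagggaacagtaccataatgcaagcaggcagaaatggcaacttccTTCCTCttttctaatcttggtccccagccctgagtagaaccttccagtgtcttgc
The GAS-type motif stood in 7.02% of all 32851 upstream windows of that length, and the PU.1-type motif in 23.3%. PU.1-type matches were also present at Fcgr3, Fcgr4, Inpp5d and 1 of the 2 starts of Syk, and not in the windows of Fcgr2b or Fcer1g. A STAT6-type motif (TTCNNNNGAA), the spacing preferred by the factor that IL-4 activates, stood in 5.85% of all windows and, among the members, at Inpp5d alone. These matches describe letters and not bound sites.

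Of the 7 members, 1 was higher in the PGAM5 knockdown than in the DRP1 knockdown, 3 were lower and 3 did not pass (limma, Benjamini-Hochberg adjusted p under 0.05 over all genes tested). The inhibitory receptor Fcgr2b was higher, and the high-affinity receptor Fcgr1, the gamma chain Fcer1g and the kinase Syk were lower. Fcgr3, Fcgr4 and Inpp5d did not pass. In the whole fit 25.4% of the genes passed, 13.8% as higher and 11.7% as lower, so the counts of members stand in a comparison where many genes differed. The groups did not overlap for 5 of the 7 members, against 43.5% of all genes tested. Without PGAM5 knockdown library 2, or without DRP1 knockdown library 1, 2 or 3, 1 member was lower in place of 3. The median absolute log2 difference was 0.13 over the members, 0.105 over all genes tested and 0.263 over all genes that passed.

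**Figure D1:**
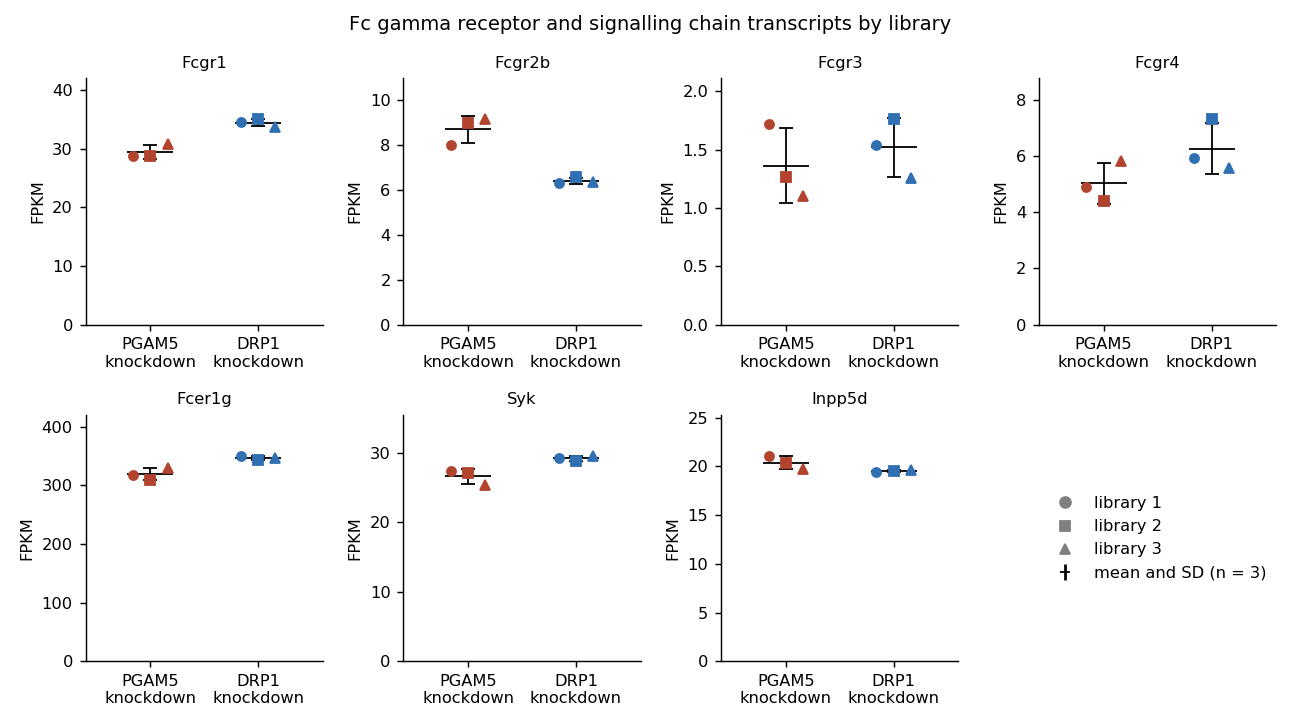
FPKM of the 7 members in each library (points) with the mean (horizontal line) and SD (error bar) of the 3 libraries of each group, 1 panel per gene with its own linear axis. Fcgr2b lies higher in all 3 PGAM5 knockdown libraries, Fcgr1, Fcer1g and Syk lie lower in all 3, and the groups overlap for Fcgr3 and Fcgr4.

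Fcgr1 (ENSMUSG00000015947, chromosome 3, 96282909 to 96293969, minus strand, mm10) encodes CD64, the receptor that binds monomeric IgG with high affinity. It stood at 28.7, 28.8 and 30.8 FPKM in the PGAM5 knockdown and 34.5, 35 and 33.8 FPKM in the DRP1 knockdown. Every PGAM5 knockdown library lay below every DRP1 knockdown library. The means were 29.4 ± 1.16 and 34.4 ± 0.61 FPKM (SD, n = 3 each), a level 1.17-fold lower in the PGAM5 knockdown. The log2 difference was -0.22 (SE 0.037, 95% interval -0.31 to -0.13, limma adjusted p = 0.0053). The exact permutation test gave p = 0.1, the smallest two-sided value that 3 libraries against 3 can give. Of all genes tested, 21.0% had a larger absolute difference. Fcgr1 passed under each of the 15 alternatives tried, with adjusted p from 0.0016 to 0.027.

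Fcgr4 (ENSMUSG00000059089, chromosome 1, 171018920 to 171029761, plus strand) encodes an activating receptor of intermediate affinity for IgG2a and IgG2b. Its level was 4.89, 4.39 and 5.83 FPKM in the PGAM5 knockdown and 5.93, 7.29 and 5.55 FPKM in the DRP1 knockdown. PGAM5 knockdown library 3 lay above DRP1 knockdown library 3, so the groups overlapped. The means were 5.03 ± 0.73 and 6.26 ± 0.91 FPKM, with a log2 difference of -0.27 (95% interval -0.53 to -0.00084, limma adjusted p = 0.131). The size of this difference was larger than that of Fcgr1, and so was its spread between libraries. It rested on 333 reads over the PGAM5 knockdown libraries and 435 over the DRP1 knockdown libraries, against 3998 and 4962 for Fcgr1. Leaving out 1 library gave log2 differences from -0.17 (without DRP1 knockdown library 2, limma adjusted p = 0.328) to -0.36 (without PGAM5 knockdown library 3, 0.057), and none passed.

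Fcgr3 (ENSMUSG00000059498, chromosome 1, 171051174 to 171064935, minus strand) encodes CD16, an activating receptor of low affinity. It was the lowest member, at 1.72, 1.27 and 1.10 FPKM in the PGAM5 knockdown and 1.54, 1.76 and 1.26 FPKM in the DRP1 knockdown. The groups overlapped over most of their range. The log2 difference was -0.096, and its 95% interval from -0.38 to 0.19 held the difference of Fcgr1 as well as differences above 0 (limma adjusted p = 0.61). Leaving out 1 library moved it from -0.20 (without PGAM5 knockdown library 1) to -0.015 (without PGAM5 knockdown library 3), or to -0.028 without DRP1 knockdown library 2 and -0.17 without DRP1 knockdown library 3. The reads behind it numbered 124 and 145 in the 2 groups. No difference of Fcgr3 was detected with these reads, and reads from the stretch shared with Fcgr2b may not have been counted for either gene.

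Fcgr2b (ENSMUSG00000026656, chromosome 1, 170958617 to 170976547, minus strand) encodes CD32B, the inhibitory receptor of this family. It stood at 8.01, 8.96 and 9.13 FPKM in the PGAM5 knockdown and 6.31, 6.55 and 6.36 FPKM in the DRP1 knockdown. All 3 PGAM5 knockdown libraries were above all 3 DRP1 knockdown libraries. The means were 8.70 ± 0.60 and 6.41 ± 0.13 FPKM, a level 1.36-fold higher in the PGAM5 knockdown. The log2 difference was 0.39 (SE 0.055, 95% interval 0.26 to 0.52, limma adjusted p = 0.0025, exact permutation p = 0.1). This was the largest absolute difference among the members, and 7.14% of all genes tested had a larger one. It rested on 2639 and 2067 reads and passed under each of the 15 alternatives, with adjusted p from 0.00016 to 0.0145. An antisense gene, Gm38204, shares 155 exonic bases with Fcgr2b and stood at 0.074 to 0.26 FPKM. The strand setting of the counting was not given in the sources used here, so reads of the 2 genes over those bases cannot be told apart.

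The balance of receptor transcripts can be read within each library, where the library total cancels. These libraries hold no measure of receptor protein or of phagocytosis. Fcgr1 was 3.58, 3.22 and 3.37 times the FPKM of Fcgr2b with PGAM5 knockdown and 5.47, 5.34 and 5.32 times with DRP1 knockdown. The means were 3.39 ± 0.18 and 5.38 ± 0.080, and the ratio was 36.9% lower in the PGAM5 knockdown without overlap. The ratio of Fcgr4 to Fcgr2b was 0.610, 0.490 and 0.638 against 0.939, 1.11 and 0.874, which is 40.6% lower and also without overlap. The groups overlapped for Fcgr4 itself, which did not pass, and not for this ratio. Each receptor ratio divides by Fcgr2b, which was itself 1.36-fold higher in the PGAM5 knockdown without overlap. A gene with no difference would therefore also give a lower ratio, and the lack of overlap is not a result about Fcgr4. Fcgr3 over Fcgr2b gave 0.215, 0.142 and 0.121 against 0.244, 0.268 and 0.198, with overlap. The summed activating receptors over Fcgr2b gave 4.41, 3.85 and 4.13 against 6.65, 6.72 and 6.39, or 4.13 ± 0.28 against 6.59 ± 0.18. Most of that sum was Fcgr1. The size of each ratio depends on the lengths used. With the longest transcript of each gene in place of all its exons, Fcgr1 over Fcgr2b was 2.08 ± 0.11 against 3.29 ± 0.049, still 36.9% lower, and the sum over Fcgr2b was 2.56 ± 0.18 against 4.07 ± 0.11, or 37.3% lower. These ratios were built from values already described and were not tested. Leaving out 1 library gave mean ratios of Fcgr1 over Fcgr2b of 3.295 to 3.477 with PGAM5 knockdown and 5.33 to 5.405 with DRP1 knockdown. For the sum over Fcgr2b the means were 3.99 to 4.268 and 6.52 to 6.687.

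**Figure D2:**
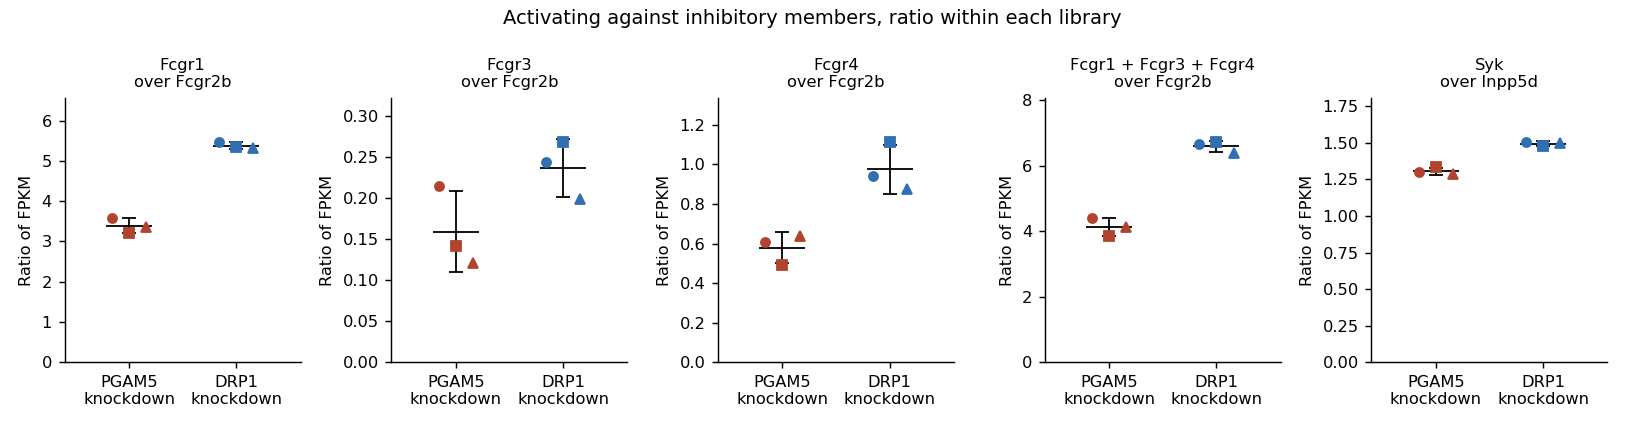
Ratio of FPKM in each library (points) with the mean (horizontal line) and SD (error bar) of 3 libraries per group, for each activating receptor over Fcgr2b, for their sum over Fcgr2b, and for Syk over Inpp5d. The groups are apart for each ratio shown except Fcgr3 over Fcgr2b.

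As shares of the summed FPKM of the 4 receptors, Fcgr2b made up 18.5%, 20.6% and 19.5% with PGAM5 knockdown and 13.1%, 13.0% and 13.5% with DRP1 knockdown. Fcgr1 held the largest share in both groups, 66.1 ± 0.35% with PGAM5 knockdown and 70.9 ± 1.49% with DRP1 knockdown. Fcgr4 took 11.3 ± 1.17% and 12.8 ± 1.38%, and Fcgr3 took 3.08 ± 0.82% and 3.11 ± 0.40%. The groups did not overlap for the share of Fcgr2b. By longest transcript that share was larger in both groups, at 28.2 ± 1.40% and 19.7 ± 0.45%.

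Fcer1g (ENSMUSG00000058715, chromosome 1, 171229572 to 171234365, minus strand) encodes the gamma chain, which also holds the activating receptors at the cell surface. It was by far the most abundant member, at 318, 308 and 329 FPKM in the PGAM5 knockdown and 350, 342 and 347 FPKM in the DRP1 knockdown. The groups did not overlap. The means were 319 ± 10.5 and 346 ± 3.72 FPKM, a level 1.09-fold lower in the PGAM5 knockdown (log2 difference -0.12, SE 0.031, 95% interval -0.19 to -0.046, limma adjusted p = 0.029). It rested on 14613 and 16856 reads, and 45% of all genes tested had a larger absolute difference. The call was lost in 8 of 15 alternatives. Among them was leaving out PGAM5 knockdown library 1 or 2 (adjusted p = 0.066 and 0.091) or DRP1 knockdown library 1, 2 or 3 (0.104, 0.078 and 0.095). With quantile scaling of the libraries the difference was larger, at -0.22.

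Syk (ENSMUSG00000021457, chromosome 13, 52583173 to 52648792, plus strand) encodes the tyrosine kinase that docks on the phosphorylated gamma chain. It stood at 27.3, 27.1 and 25.4 FPKM in the PGAM5 knockdown and 29.3, 28.8 and 29.5 FPKM in the DRP1 knockdown. Library 3 was the lowest of the PGAM5 knockdown, and no library of that group reached the DRP1 knockdown. The means were 26.6 ± 1.05 and 29.2 ± 0.37 FPKM, a level 1.10-fold lower (log2 difference -0.13, SE 0.037, 95% interval -0.22 to -0.044, limma adjusted p = 0.039). The call was lost in 7 of 15 alternatives. These included leaving out PGAM5 knockdown library 2 (adjusted p = 0.068) or DRP1 knockdown library 1, 2 or 3 (0.112, 0.086 and 0.122). Without PGAM5 knockdown library 3 it passed at a smaller difference of -0.099 (adjusted p = 0.044).

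Inpp5d (ENSMUSG00000026288, chromosome 1, 87620312 to 87720507, plus strand) encodes SHIP1, which removes a phosphate from the lipid product of PI3-kinase and acts with Fcgr2b. Its level was 21.0, 20.3 and 19.7 FPKM in the PGAM5 knockdown and 19.5, 19.5 and 19.7 FPKM in the DRP1 knockdown. The groups did not overlap, but the lowest PGAM5 knockdown library lay within 1 SD of the highest of the DRP1 knockdown. The log2 difference was 0.056, with a 95% interval from -0.025 to 0.14 (limma adjusted p = 0.281). Without PGAM5 knockdown library 1 it was 0.034 (adjusted p = 0.545). That interval excludes a difference as large as that of Fcgr2b. Syk over Inpp5d was 1.30, 1.33 and 1.29 with PGAM5 knockdown and 1.5, 1.47 and 1.5 with DRP1 knockdown, 12.6% lower without overlap.

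**Figure D3:**
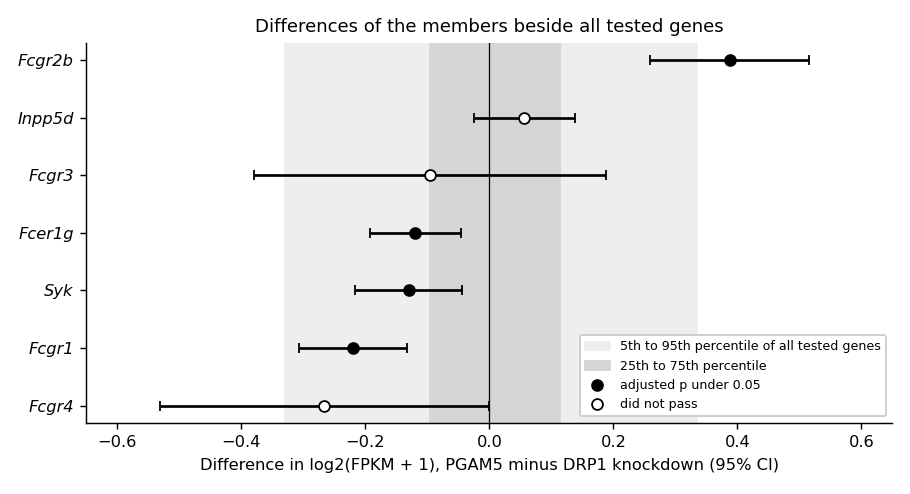
Difference of each member (PGAM5 knockdown minus DRP1 knockdown, log2(FPKM + 1) scale) with its 95% interval, filled where the limma adjusted p is under 0.05, over shaded bands that hold the 5th to 95th and the 25th to 75th percentiles of all 10634 genes tested. Fcgr2b lies at 0.39 and Fcgr1 at -0.22, and the interval of Fcgr3 spans 0.

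Fcgr2b, Fcgr4, Fcgr3 and Fcer1g lie in that order within 1 stretch of chromosome 1, from 170958617 to 171234365. Their differences did not share a direction along it, with Fcgr2b higher, Fcer1g lower and the 2 genes between them not passing.

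By mean level over all 6 libraries the members ranked Fcer1g (332 FPKM), Fcgr1 (31.9), Syk (27.9), Inpp5d (19.96), Fcgr2b (7.55), Fcgr4 (5.65) and Fcgr3 (1.44). Fcer1g lay above 98.7% of all genes tested, Fcgr1 above 82.4% and Fcgr3 above 6.11%. The ranges of Fcgr1 and Syk overlapped, although Fcgr1 was above Syk in 6 of 6 libraries. Those of Fcgr2b and Fcgr4 also overlapped, with Fcgr2b above Fcgr4 in 5 of 6. No other neighbours in the order overlapped. These levels divide by the length of all exons of a gene. Divided by the longest transcript, Syk (48.7) passed Fcgr1 (31.9) in 6 of 6 libraries and Inpp5d (30.7) came level with it, while Fcgr2b (12.3) no longer overlapped Fcgr4. The place of Fcer1g at the top and of Fcgr3 at the bottom was the same on both scales.

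Genes around the receptors were described from 8 lists that hold 149 other genes, of which 113 were tested. Of these, 29 were higher in the PGAM5 knockdown, 25 were lower and 59 did not pass. The share that passed was 47.8%, beside 25.4% of all genes tested, and it was uneven, with 8 of 27 among the adaptors and effectors. The lists, too, were drawn up with earlier results of these data known, so this share is a description of the genes chosen. The median log2 difference of -0.0018 lay close to the 0.0094 of all genes. The macrophage markers Lyz2, Csf1r and Cd68, given above, moved beside these lists and beside the members, and their part in these results was not tested.

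The Src family kinases phosphorylate the ITAM of the gamma chain before Syk binds. Of 8 tested genes in the list of these kinases and their regulators, 4 were higher in the PGAM5 knockdown and none was lower (median log2 difference 0.084). Lyn, a main kinase at Fc receptors, stood at 64.1 ± 0.59 FPKM against 51.8 ± 1.92 (log2 difference 0.30, limma adjusted p = 0.00091), although 37.6% of its transcript matches 2 other gene models, which makes its level less certain. Fyn was 25.6 ± 0.59 against 20.4 ± 0.54 (0.31, adjusted p = 0.00089). The phosphatase Ptpn22, which switches Src family kinases off, was 11.6 ± 0.67 against 8.0 ± 0.26 (0.49, adjusted p = 0.00065). Pag1, a membrane adaptor that brings in the inhibitory kinase Csk, was 2.62 ± 0.10 against 2.16 ± 0.014 (0.20, adjusted p = 0.041) and lost its call in 8 of 14 alternatives. Kinases and their inhibitors were both among the genes that were higher.

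Of 27 adaptors and effectors tested next to Syk, 2 were higher, 6 were lower and 19 did not pass (median -0.061). Card9, the adaptor that links Syk to NF-kB, was higher, with means of 49.6 ± 1.80 and 37.1 ± 0.61 FPKM (limma log2 difference 0.41, adjusted p = 0.00029). The kinase Btk was lower, at 19.9 ± 0.28 against 25 ± 0.44 (-0.31, adjusted p = 0.00057). Lat2, a membrane scaffold, was 64.6 ± 1.90 against 77.2 ± 2.83 (-0.25, adjusted p = 0.0032); 55.6% of its transcript is shared with Rfc2. The PI3-kinase subunit Pik3cg was 6.79 ± 0.54 against 8.37 ± 0.27 (-0.27, adjusted p = 0.015), a call that was lost without library 2 of the PGAM5 knockdown or library 3 of the DRP1 knockdown. The other PI3-kinase subunits in the list did not share a direction, with calls both higher and lower and some that did not pass.

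Many phosphatases, Dok adaptors and Cbl ligases damp Fc receptor signals, although the list was not limited to genes with that role alone. Of 10 tested, 5 were higher, 5 did not pass and none was lower (median 0.15). Ptpn6, which encodes the tyrosine phosphatase SHP-1, stood at 117 ± 1.63 FPKM with PGAM5 knockdown and 82.7 ± 1.01 with DRP1 knockdown (log2 difference 0.50, limma adjusted p = 3.9e-05). Inppl1, the gene of SHIP2 and relative of Inpp5d, was 18.5 ± 0.45 against 15.8 ± 0.28 (0.22, adjusted p = 0.0043). Ubash3b, a phosphatase that acts on Syk, was 7.06 ± 0.097 against 5.69 ± 0.35 (0.27, adjusted p = 0.0085). Dok1 was 29.0 ± 0.36 against 25.6 ± 0.18 (0.17, adjusted p = 0.0049). Among the 5 that did not pass, Cblb went the other way without overlap, at a level near the filter. It was 0.87 ± 0.15 against 1.23 ± 0.041 (-0.26, adjusted p = 0.065). Inpp5d itself, described with the members, did not pass.

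Among 40 tested genes of the phagocytic cup, the actin and membrane structure that closes around an IgG-coated particle, 15 were higher and 5 were lower (median 0.055). Lsp1, an actin-binding protein of leukocytes, was 3.23 ± 0.21 FPKM against 1.42 ± 0.15 (log2 difference 0.80, limma adjusted p = 0.00038). Pip5k1b, which makes the lipid PIP2, was 28.0 ± 0.17 against 18.3 ± 0.82 (0.59, adjusted p = 9.3e-05), and the actin-linked Marcksl1 was 96.8 ± 1.99 against 65.4 ± 1.40 (0.56, adjusted p = 4.1e-05). The myosin Myo1f was lower, at 9.86 ± 0.52 against 16.6 ± 0.25 (-0.70, adjusted p = 7.3e-05). The list held changes in both directions that were larger than that of any member.

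The phagocyte NADPH oxidase makes superoxide in the phagosome. Of its 5 genes, all tested, 3 were lower and none was higher (median -0.108). Its membrane subunit Cybb stood at 28.3 ± 1.32 FPKM against 48.3 ± 1.47 (log2 difference -0.75, limma adjusted p = 4.7e-05). The cytosolic subunit Ncf4 was 69.2 ± 1.32 against 81.4 ± 0.66 (-0.23, adjusted p = 0.0012). Ncf1 was 116 ± 3.15 against 125 ± 0.52 (-0.11, adjusted p = 0.031), a small difference that lost its call in 6 of 15 alternatives.

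Other receptors use ITAM adaptors. Of 9 tested genes in the list of such receptors and their adaptors, 5 were lower and none was higher (median -0.29). Tyrobp, which encodes the ITAM adaptor DAP12 and is the counterpart of Fcer1g, was 292 ± 13.3 FPKM against 366 ± 15.5 (log2 difference -0.33, limma adjusted p = 0.0023). Hcst, which encodes DAP10, an adaptor with a PI3-kinase binding motif and no ITAM, was 7.31 ± 0.80 against 11.6 ± 0.10 (-0.60, adjusted p = 0.0011). The lectin receptors Clec4d and Clec4e, which signal through Fcer1g, were 82.8 ± 6.33 against 115 ± 2.16 (-0.48, adjusted p = 0.00087) and 20.4 ± 1.16 against 25.7 ± 0.34 (-0.32, adjusted p = 0.0025). These 4 were named because their differences were the largest in the list that passed, and each was larger than that of Fcer1g. The 4 genes of the list that did not pass had differences from -0.079 to 0.122.

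Of 11 tested genes in the list of other ITIM receptors, 6 were lower, 1 was higher and 4 did not pass (median -0.14). Fcgr2b, itself an ITIM receptor, was higher. Whether each listed gene, Cd33 and Lilr4b among them, encodes an ITIM in the mouse was not checked. The counts therefore describe the list as drawn up and are not a result about ITIM receptors. Cd33, a sialic acid-binding lectin, stood at 10.7 ± 0.45 FPKM against 23.7 ± 0.16 (log2 difference -1.07, limma adjusted p = 9.8e-06). Lilr4b and Lilrb4a were 75.2 ± 5.03 against 99.1 ± 2.21 (-0.40, adjusted p = 0.0015) and 32.8 ± 2.42 against 42.9 ± 0.75 (-0.38, adjusted p = 0.0025). These paralogs share near-identical stretches, 34.7% of the Lilrb4a transcript with other genes, so their values are not independent. Clec12a was higher, at 16.5 ± 1.87 against 12.8 ± 0.14 (0.33, adjusted p = 0.014), and lost its call without DRP1 knockdown library 1.

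Few genes were expressed in the list of other Fc receptors, which also holds partner chains and Fc receptor-like genes. Of 15 listed genes 3 were tested. The 2 called higher were a light chain, B2m, and an Fc receptor-like gene, Fcrl1. B2m, the light chain of the neonatal Fc receptor and of MHC class I, was 423 ± 31.4 FPKM against 367 ± 5.63 (log2 difference 0.20, limma adjusted p = 0.026), a call lost in 6 of 15 alternatives, among them quantile scaling, where the difference was 0.072. Fcrl1 was 4.77 ± 0.085 against 4.06 ± 0.19 (0.19, adjusted p = 0.030) and lost its call in 8 of 14. Fcgrt, the neonatal receptor's heavy chain, was 1.39, 1.37 and 1.53 FPKM against 2.10, 1.00 and 1.11 and did not pass. Fcer1a and Ms4a2, the chains that partner Fcer1g in the mast cell IgE receptor, were listed at 0 in all 6 libraries.

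**Figure D4:**
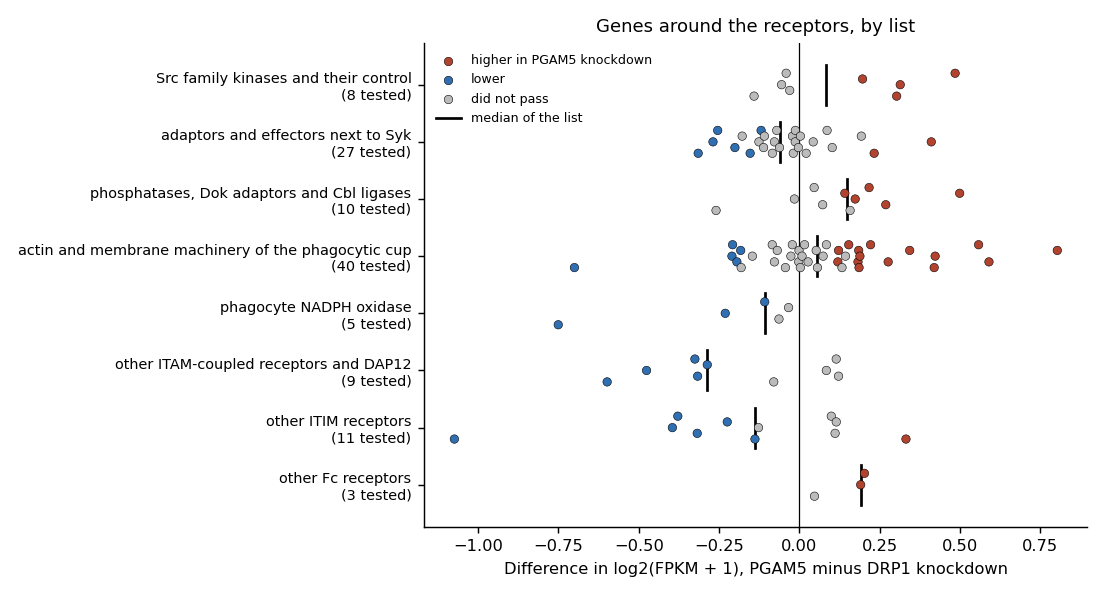
Log2 difference of each tested gene (points, PGAM5 knockdown minus DRP1 knockdown, log2(FPKM + 1) scale) in the 8 lists, coloured by whether it was higher, lower or did not pass (limma adjusted p under 0.05), with the median of each list as a vertical line. Genes that passed lie right of 0 alone in the lists of Src family kinases, of phosphatases and of other Fc receptors, and left of 0 alone in those of the NADPH oxidase and of other ITAM-coupled receptors with their adaptors.

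Markers of other cell types were near 0, with 1 exception among those of B cells. Of 9 B cell markers, Ighm alone had a mean of at least 1 FPKM, at 25.5, 25.7 and 27.3 against 21.9, 23.0 and 25.1. The other B cell markers summed to 0.21 to 0.43 FPKM, with Ms4a1, Igkc and Vpreb3 at 0 in all libraries. The groups did not overlap for Ighm, which did not pass (log2 difference 0.16, limma adjusted p = 0.067), nor for Cd79b, which was below the filter at 0.236 to 0.30 against 0.0319 to 0.130 FPKM. B cells carry Fcgr2b as well, and the part of these transcripts in its result was not tested. The 10 NK and T cell markers summed to at most 0.078 FPKM and the 10 neutrophil markers to at most 0.21. The 9 mast cell and basophil markers summed to 0.56 to 1.00 FPKM with PGAM5 knockdown and 1.15 to 1.39 with DRP1 knockdown, with 4 of them at 0. Dendritic cell markers summed to at most 0.51 FPKM and fibroblast markers to at most 0.22.

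For each member that passed, the genes with the most similar profile over the 6 libraries were found by the Euclidean distance of centred log2 values. Nearest to Fcgr1 were Gsto1, Ctsz and Srsf6, at distances of 0.033, 0.034 and 0.035. Nearest to Fcgr2b were Rpa2, Dgat2 and Il18, at 0.072, 0.076 and 0.077. Fcer1g was nearest to Fuca1 (0.023), Crebzf (0.030) and Aen (0.032), and Syk to Plekhm1 (0.023), Slc25a44 (0.035) and Akt1 (0.035). Akt1, a kinase downstream of PI3-kinase, is the only one of these that stands in the lists above. With 6 libraries in 2 groups many genes share such profiles, and these names are a description.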

How the data were processed

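RNA sequencing values of 6 libraries, 3 per knockdown, were used as deposited by the authors, in FPKM for 54532 gene identifiers, of which 54495 matched GENCODE M21 (mm10). Per the submitters' processing notes, the authors used HISAT2 2.0.5 and featureCounts 1.5.0-p3 with mm10. The FPKM formula, the annotation release, the strand setting and the handling of shared reads were not given in the sources used here. FPKM divides by the library total, so a highly expressed gene lowers the values of all others. Values times exonic length gave whole reads (within 0.02) for 96.1% of the values, from which the library totals and the reads per gene were taken. Intervals of differences cover the spread between libraries.

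Genes with a mean of at least 1 FPKM entered limma 3.58.1 (R 4.3.3) as log2(FPKM + 1) (linear model, empirical Bayes with trend, two-sided, Benjamini-Hochberg over 10634 genes, threshold 0.05). Differences are PGAM5 minus DRP1 knockdown on that scale, which understates low genes. Folds are ratios of mean FPKM. The steps were also run on simulated data with far fewer changed genes than here, which checks the code and not these results. Single values also had an exact permutation test. Fcgr2b and Fcgr3 were aligned, and matches to other genes searched, with blastn 2.17.0 (97% identity over 100 bases). Promoter windows came from RefSeq (GRCm38.p6).

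Groups followed the sample titles. Members and lists were chosen with earlier results of these data known. Named genes are the members, the targeted genes, up to 4 genes per list with the largest differences that passed, 3 nearest profiles per member that passed, neighbours, near-identical genes and markers. Fcgrt, Fcer1a, Ms4a2 and Cblb were added after their values were seen. The 15 alternatives were other pseudocounts, filters, scalings, variance models, limma-voom on recovered reads, a replicate block and leaving out each library. The longest transcript as the length behind ratios was added after seeing the data.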

Additional observations from a re-analysis of the deposited data

How the results depend on the processing

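Fcgr1 and Fcgr2b passed under all 15 alternatives, Fcgr4 and Inpp5d under none, Fcgr3 under none of those that tested it (its mean was below 5 FPKM), and no result reversed. Without a filter, without the variance trend and with the replicate block, Fcer1g (log2 difference -0.12) and Syk (-0.13) no longer passed, leaving 1 lower member in place of 3. Leaving out each library gave -0.14 to -0.096 for Fcer1g, -0.15 to -0.099 for Syk and 1 to 3 lower members. Same-numbered libraries did not deviate together (correlations 0.0215, 0.031 and -0.00034), so the numbers were not taken as pairing. The replicate block left 1161 genes higher and 972 lower, against 1464 and 1240, and leaving out each library gave 971 to 1458 higher (fewest without DRP1 knockdown library 2) and 825 to 1280 lower (fewest without DRP1 knockdown library 3). With limma-voom on the recovered reads 1653 genes were higher and 1507 lower. With the block, 1 adaptor and 1 other Fc receptor were higher. Counts in small lists also moved. Adaptors were 1 higher without a filter, and 1 to 3 higher (1 without library 2 of either group or library 3 of the DRP1 knockdown) and 3 to 5 lower without each library (3 without library 2 of the PGAM5 knockdown or library 3 of the DRP1 knockdown). The phosphatase list had 1 lower without the trend and with voom, and 0 to 1 without each library (1 without PGAM5 knockdown library 1). Phagocytic cup genes were 3 lower without a filter and 2 to 5 without each library (2 or 3 without PGAM5 knockdown library 2 or any DRP1 knockdown library). Other ITAM receptors were 1 higher at a mean of at least 5 FPKM and with voom, and 0 to 2 without each library (2 without PGAM5 knockdown library 2). Other ITIM receptors were 2 higher without a filter and with voom, and 0 to 2 without each library (2 without PGAM5 knockdown library 1, 0 without DRP1 knockdown library 1). Other Fc receptors were 0 higher without a filter, 1 higher at a mean of at least 5 FPKM and with quantile scaling, and 0 to 1 without each library (1 without PGAM5 knockdown library 1 or 3, 0 without the others). With the longest transcript as the length, chosen after seeing the data, the ratios in the PGAM5 and DRP1 knockdown were 2.08 and 3.29 for Fcgr1 over Fcgr2b, 0.125 and 0.187 for Fcgr3, 0.355 and 0.597 for Fcgr4, 2.56 and 4.07 for their sum, and 1.48 and 1.69 for Syk over Inpp5d. These follow from the lengths. The other causes were not tested. Fcgr3 rested on the fewest reads, 124 and 145 per group.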
